A study of Mus musculus with 10 samples.

Results

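The 54 genes described here encode the cyclins, cyclin-dependent kinases (CDKs) and CDK inhibitors, the pocket proteins and E2F factors, the replication licensing proteins, and the checkpoint and mitotic proteins that carry mouse embryonic stem cells (ESCs) through the cell cycle. They were picked by name from the 21853 protein-coding genes of the series and arranged in 8 groups by role. Their level in 10 bulk RNA-seq libraries was given as TPM, which is transcript abundance scaled within a library. Of the 54, 53 were listed at 1 TPM or more in at least 2 libraries and were tested together with all 12060 genes that met this limit. The gene left out was Cdkn2c, a CDK4 and CDK6 inhibitor, which ranged from 0.359 to 0.75 TPM. Rb1 met the limit only through the lines where it was higher.

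The 5 lines had 2 libraries each and all derived from J1. Naïve ESCs were wild-type J1 on gelatin in serum with leukemia inhibitory factor and 2i, the pair of inhibitors PD0325901 (MEK1) and CHIR99021 (GSK3β). AKO carried a knockout of AMPK, the kinase that senses low energy, made with a plasmid against Prkaa1 that also inserts a red fluorescent reporter by which cells were sorted. GKO carried a knockout of GYS1, the muscle-type glycogen synthase, made as an indel in Gys1 and picked as single colonies, and DKO carried both knockouts. The labels give these knockouts the same medium as naïve J1. Primed ESCs (PJ1) were wild type on Matrigel in bFgf, Activin and serum replacement, so that state, medium and substrate changed together in that comparison. How many clones stood behind a line is not given in the sources used here. Nothing states that the libraries of a line came from separate cultures, so that p-values measure the spread between these libraries, which may be technical.

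Cyclin D with CDK4 or CDK6 and cyclin E with CDK2 phosphorylate the pocket proteins RB1, RBL1 and RBL2, which releases E2F factors to transcribe the genes for DNA replication. Licensing loads the MCM helicase on origins through ORC, CDC6 and CDT1, with geminin (Gmnn) as the inhibitor of CDT1, and cyclins A and B with CDK1 then drive mitosis until the spindle checkpoint lets CDC20 start anaphase. ESCs are known for a short G1 phase, and many of these genes are transcribed in a phase-dependent way, so that in bulk RNA fewer cells of a phase or type and less RNA per cell cannot be told apart. The study's propidium iodide staining found the shares of G1, S and G2 cells in GKO not significantly different from wild-type J1. Whether the cultures sequenced here had the same shares is not given.

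The targeted genes were read first as a check of the labels. Prkaa1 was at 15.5 and 16.6 TPM (naïve ESCs), 7.24 and 6.94 (AKO) and 2.30 and 2.04 (DKO), lower in AKO than in naïve ESCs by a log2 difference of -1.07 ± 0.068 (limma adjusted p = 0.00121) and lower again in DKO than in AKO (-1.35 ± 0.068, limma adjusted p = 3.39e-06). Here and below a difference is on the log2(TPM + 1) scale, ± is its SE in the limma fit and n is 2 libraries a line. Gys1 was at 11.5 and 10.8 TPM (naïve ESCs), 9.70 and 9.98 (GKO) and 12.1 and 11.7 (DKO), and an indel need not lower the mRNA, so this level does not check the knockout. The 9 naïve pluripotency markers summed to 1252 to 1288 TPM over the naïve and AKO libraries. They summed to 1404 to 1423 TPM in DKO, 1434 to 1470 in GKO and 25.7 to 33.3 in primed ESCs. In primed ESCs 3 of 9 reached 1 TPM and Dppa3 was listed at 0. In GKO 6 of the 9 were called higher than in naïve ESCs and 0 lower, beside 24.7% and 27.1% of all tested genes. By quantitative RT-PCR, a measure unlike TPM, the study reported lower Nanog, Rex1 (Zfp42) and Esrrb mRNA in GKO. From gene set scores of its RNA-seq it placed GKO between naïve and primed ESCs. Here the mean TPM in GKO was 472 beside 435 in naïve ESCs for Nanog, 464 beside 466 for Zfp42 and 233 beside 180 for Esrrb. The 7 primed markers summed to 446 to 474 TPM in primed ESCs and 75.8 to 75.9 in GKO. In naïve ESCs they summed to 51.3 to 52.4 TPM, in AKO to 43.5 to 44.95 and in DKO to 52.2 to 54.7. Of the 6 tested, 2 were called higher in GKO than in naïve ESCs and 0 lower, and in DKO 2 were higher and 3 lower. Of other cell types, the 6 fibroblast markers summed to 3.15 to 3.77 TPM in naïve ESCs, AKO and DKO, 9.54 to 10.7 TPM in GKO (2 of 6 at 1 TPM or more, Dcn at 0, most of the sum from Thy1) and 9.57 to 15.8 TPM in primed ESCs (3 of 6, Dcn at 0). The 5 trophectoderm markers summed to 9.20 to 10.2 TPM in naïve ESCs and AKO, 30.0 to 31.7 TPM in GKO (2 of 5, Tfap2c and Cdx2), 13.9 to 14.1 TPM in DKO and 3.03 to 6.19 TPM in primed ESCs, and the 6 primitive endoderm markers to 1.11 to 2.40 TPM outside primed ESCs and 2.87 to 7.18 TPM in them. The part of such cells in the results was not tested. TPM keeps no read depth, so the depth of the libraries is unknown. The 54 genes together held 0.763% to 0.781% of the listed TPM in naïve ESCs and AKO, 0.849% to 0.889% in GKO, 0.795% to 0.819% in DKO and 0.656% to 0.659% in primed ESCs. The listed TPM itself summed to 565209 to 578952 in naïve ESCs and AKO and 517712 to 531306 in GKO. It summed to 531062 to 559117 in DKO and 500162 to 512120 in primed ESCs, so these shares depend on the total as well. The 54 genes alone summed to 4414.9 to 4463.8 TPM in naïve ESCs and AKO and 4511.5 to 4603.1 in GKO. In DKO they summed to 4347.5 to 4446.1 TPM and in primed ESCs to 3279.1 to 3373.8 TPM.

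Because the genes of replication and of mitosis are classically read through E2F sites and through CHR and CCAAT elements, the promoters were searched for these letters. RefSeq promoters (GRCm38.p6) were matched by symbol for 43 of the 54 genes, and the 250 bases before each start were searched on both strands. The E2F letters TTTCCCGC, TTTCGCGC, TTTGCCGC or TTTGGCGC stood before 13 of the 43 genes (30.2%) and before 2.16% of all 27025 genes in the table. The letters CCAAT stood before 30 of 43 (69.8%, against 37.5%), the CHR letters TTTGAA or TTCGAA before 12 of 43 (27.9%, against 19.6%), and CHR with CCAAT before 11 (25.6%, against 7.0%). Of the 10 licensing genes with a promoter, 5 held E2F letters (Cdc6, Mcm5, Mcm6, Mcm7 and Orc1). Of the 11 with a promoter in the spindle checkpoint and mitotic groups, 0 held E2F letters and 9 held CCAAT. The group of A and B cyclins, CDK1, CDC25 phosphatases and G2 checkpoint kinases had 7 with a promoter. Of these 3 held E2F letters (Cdc25a, Cdk1 and Chek2) and 6 held CCAAT. The 120 bases before the start are printed for 8 genes that carry the results, on the gene's strand, with every matched letter in capitals. Where 2 E2F matches overlapped, as in Mcm6, they form a longer run of capitals.
Orc1 (chr4:108579334-108579453, plus strand): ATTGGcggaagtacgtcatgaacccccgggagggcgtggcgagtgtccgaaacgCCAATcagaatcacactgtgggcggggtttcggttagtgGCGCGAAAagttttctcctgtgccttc
Mcm6 (chr1:128359706-128359825, minus strand): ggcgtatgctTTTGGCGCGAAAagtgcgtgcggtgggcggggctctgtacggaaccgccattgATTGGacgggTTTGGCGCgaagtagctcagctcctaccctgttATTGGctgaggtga
Mcm2 (chr6:88898781-88898900, minus strand): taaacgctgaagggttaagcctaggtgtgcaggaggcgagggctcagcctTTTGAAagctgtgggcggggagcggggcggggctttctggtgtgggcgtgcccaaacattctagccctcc
E2f3 (chr13:29986064-29986183, minus strand): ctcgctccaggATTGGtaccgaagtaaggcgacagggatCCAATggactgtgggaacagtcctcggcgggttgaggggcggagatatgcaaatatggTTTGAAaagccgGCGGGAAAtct
Cdk1 (chr10:69352913-69353032, minus strand): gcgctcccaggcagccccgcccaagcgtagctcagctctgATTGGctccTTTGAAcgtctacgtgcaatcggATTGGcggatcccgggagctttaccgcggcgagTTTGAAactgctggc
Ccnb1 (chr13:100786487-100786606, minus strand): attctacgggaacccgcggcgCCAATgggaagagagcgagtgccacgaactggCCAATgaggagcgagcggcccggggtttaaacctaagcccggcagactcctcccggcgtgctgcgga
Aurka (chr2:172370571-172370690, minus strand): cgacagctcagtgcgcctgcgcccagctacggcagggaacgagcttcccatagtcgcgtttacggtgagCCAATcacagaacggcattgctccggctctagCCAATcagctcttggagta
Mybl2 (chr2:163054515-163054634, plus strand): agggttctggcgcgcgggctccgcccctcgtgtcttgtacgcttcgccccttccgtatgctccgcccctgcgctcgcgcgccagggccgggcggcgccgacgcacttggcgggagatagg
Orc1 and Mcm6 showed E2F letters beside CCAAT, Cdk1 showed CHR at 2 places and CCAAT read on the other strand at 2, and Ccnb1 and Aurka showed CCAAT at 2 places with no CHR letters in this window. Mcm2 showed CHR letters alone in these 120 bases. Farther from its start, at -131 to -124, Cdk1 also held the E2F letters TTTCGCGC. E2f3 showed all 3 kinds before its first listed start. Mybl2 held none of these letters in the 250 bases. Of the 13 genes with E2F letters, 10 were lower and 3 higher in primed than in naïve ESCs, with a median log2 difference of -0.43. Of the 29 tested genes with a promoter that lacked them 21 were lower and 3 higher, with a median of -0.47. The 12 genes with CHR letters had 4 higher and 1 lower in GKO than in naïve ESCs (median 0.13), and the 30 without them had 7 higher and 5 lower (median -0.03). These matches describe the windows and were not tested for function.

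With loss of GYS1, the D-type cyclin gene Ccnd3, the E2F gene E2f3, the licensing inhibitor gene Gmnn and the mitotic genes Ccnb1 and Aurka were higher than in naïve ESCs, while the CDK inhibitor gene Cdkn1b (p27) and the G1 genes Cdk4 and Ccne1 were lower. The changes were small, the largest rise among genes at a mean of 5 TPM or more being 1.60-fold, for E2f3. Of the 53 tested genes, 17 were higher and 7 lower in GKO at a limma adjusted p under 0.05, which is 45.3% beside 51.7% of all tested genes (24.7% higher and 27.1% lower). The median absolute log2 difference was 0.14 beside 0.24 over all genes. The 2 groups of libraries did not overlap for 44 of the 53, beside 81.6% of all genes. After quantile normalization 22 were higher and 5 lower. The count dropped to 14 without naïve 1 and 15 without naïve 2.

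In DKO, Cdkn1b was instead higher than in naïve ESCs, the INK4a and ARF gene Cdkn2a, Ccne1, E2f1, Rbl1, Foxm1 and Cdk4 were lower, and Gmnn, Ccnb1, Cdc20, E2f7 and Chek2 were higher. The limma test called 12 higher and 11 lower, which is 43.4% beside 46% of all genes (21.7% higher and 24.3% lower). Quantile normalization gave 19 higher and 8 lower. Leaving out naïve 1 left 14 calls. Libraries did not overlap for 43 of the 53, beside 78.8% of all genes.

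GKO and DKO differ by design in the AMPK knockout and its reporter, and all lines but primed share the medium. They also differed over whole chromosomes, with a median log2 difference of 0.15 on chromosome 6 and -0.13 on chromosome 12. Foxm1 and Cdkn1b lie on chromosome 6, and with chromosomes centred GKO minus DKO was 0.28 and -1.05 for them. Against DKO, GKO had higher Cdkn2a, Foxm1, E2f3, Ccnd3, Cdc25b and Mki67 and lower Cdkn1b, Chek2, E2f7, Cdc6, Cdk4 and Orc1. The test called 18 higher and 8 lower, 49.1% beside 43.5% of all genes (21.2% higher and 22.4% lower), and 17 calls were left without DKO 2 or without GKO 2. Libraries did not overlap for 40 of the 53, beside 76.7%.

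The AMPK knockout alone gave no call among these genes, in a line that still held 7.24 and 6.94 TPM of Prkaa1. Prkaa2, the gene of the other catalytic subunit, was at 2.71 and 2.44 TPM in AKO. In AKO against naïve ESCs, limma called 0 of the 53 genes, beside 0.224% of all tested genes (0.0663% higher and 0.158% lower), and 1 had an unadjusted p under 0.05. That gene was Ccnd3, with a log2 difference of -0.21 that missed the threshold (limma adjusted p = 0.174). Ccnd1, another D-type cyclin gene, was at 64.1 and 63.9 TPM (naïve ESCs) and 73.9 and 76.3 (AKO), with a difference of 0.23 ± 0.104 (limma adjusted p = 0.513), and passed the threshold only in a fit without the primed libraries (adjusted p = 0.035). The largest absolute log2 difference of any of the 53 was 0.23 and the median 0.04. The libraries of the lines did not overlap for 27 of the 53, beside 49.3% of all genes.

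Primed ESCs had much more Ccnd2, more Rb1, E2f3, E2f7, Cdkn1b and Aurkb, almost no Cdkn2a and much less Mybl2 than naïve ESCs, and lower Orc1, Ccne1, Mcm2 and Ccnd3. Here 11 genes were higher and 35 lower, 86.8% beside 80% of all tested genes (37.4% higher and 42.5% lower), with a median log2 difference of -0.36 beside -0.05 over all genes. After quantile normalization 17 were higher and 30 lower. An absolute log2 difference of 1 or more was reached by 3 called genes upward and 5 downward, beside 27.8% of all genes in either direction. In the knockouts it was reached by 0 of the 53 in AKO (0.00829% of all genes), 0 in GKO (3.59%), 0 in DKO (2.96%) and 0 in DKO against AKO (3.11%), and by 1 in GKO against DKO (2.68%). Rb1 and Ccnd2 were under 1 only because of the pseudocount. The ratio of mean TPM was 3.77 for Rb1 and 3.13 for Ccnd2 in GKO, 3.86 for Rb1 in DKO and 3.30 for Rb1 in DKO against AKO, all from levels under 3 TPM. Libraries did not overlap for 50 of the 53, beside 88.5%. The GKO, DKO and primed comparisons share the naïve libraries. GKO against DKO shares libraries with GKO against naïve ESCs, DKO against naïve ESCs and DKO against AKO, so their values are given side by side.

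**Figure D1:**
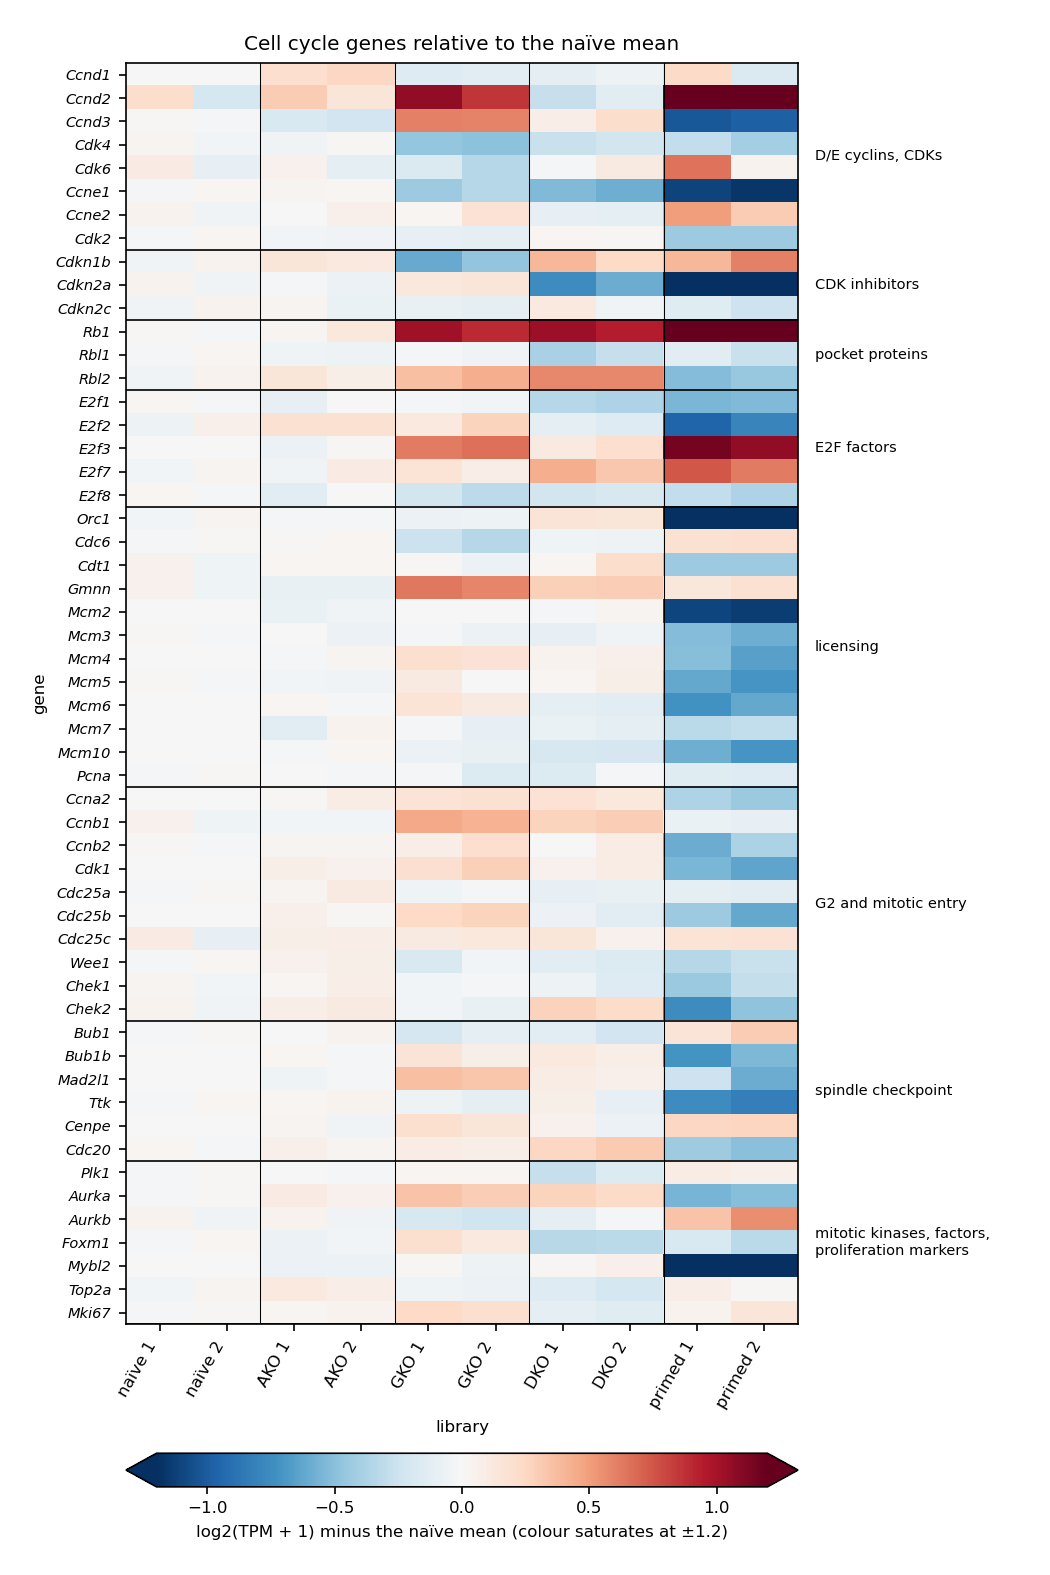
Level of each of the 54 genes in each of the 10 libraries as log2(TPM + 1) minus the mean of the 2 naïve libraries, with rows grouped by role and columns by line, and colour saturating at 1.2 either way. The AKO columns are pale throughout, GKO and DKO are both red for Rb1, and the primed columns are blue over most rows, with Ccnd2, Rb1 and E2f3 deep red.

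Among the cyclins and kinases of G1, Ccnd3, the D cyclin with the highest level in naïve ESCs, was at 129 and 126 TPM (naïve ESCs), 112 and 109 (AKO), 195 and 193 (GKO), 135 and 148 (DKO) and 62.8 and 64.2 (primed ESCs). GKO stood above and primed ESCs below every other line. The log2 difference was 0.60 ± 0.050 (limma adjusted p = 2.80e-05) in GKO against naïve ESCs (1.52-fold), 0.45 in GKO against DKO and 0.36 in DKO against AKO (limma adjusted p = 1.71e-04 and 5.39e-04), and -0.998 ± 0.050 (limma adjusted p = 1.25e-07) in primed against naïve ESCs. Ccnd2, another D cyclin gene, was at 1.03 and 0.511 TPM (naïve ESCs), 1.16 and 0.935 (AKO), 2.65 and 2.17 (GKO), 0.44 and 0.596 (DKO) and 38.3 and 32.2 (primed ESCs). It stood near 1 TPM or lower in the naïve, AKO and DKO libraries, a little above in GKO and far above in primed ESCs, where the difference was 4.37 ± 0.152 (limma adjusted p = 1.19e-08). The rise in GKO (0.96 ± 0.152, limma adjusted p = 8.38e-04) rests on levels under 3 TPM. Ccnd1 was at 57.5 and 58.0 TPM (GKO), 58.8 and 61.4 (DKO) and 75.1 and 56.6 (primed ESCs). The primed libraries lay on either side of the naïve level. The limma test called it only in DKO against AKO (-0.32 ± 0.104, limma adjusted p = 0.0341), a call lost without AKO 1 (-0.34), AKO 2 (-0.29), DKO 1 (-0.29) or DKO 2 (-0.35).

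As shares of the summed D cyclin TPM in a library, Ccnd3 made up 66.5% and 66.2% in naïve ESCs, 59.9% and 58.4% in AKO, 76.4% and 76.2% in GKO, 69.5% and 70.5% in DKO, and 35.7% and 42.0% in primed ESCs. Ccnd2 held 21.7% and 21.0% in primed ESCs and at most 1.04% in any other library. The sum itself was 194 and 191 TPM in naïve ESCs, 187 and 186 in AKO, 255 and 253 in GKO, 194 and 210.3 in DKO and 176 and 153 in primed ESCs, so that the GKO libraries had the highest total and the primed libraries the only sizeable Ccnd2 share.

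Cdk4, the main D cyclin kinase here, was at 366 and 349 TPM (naïve ESCs), 348 and 360.2 (AKO), 259 and 254 (GKO), 297 and 307 (DKO) and 290.5 and 268 (primed ESCs). Every GKO, DKO and primed library was below every naïve and AKO library. The log2 difference from naïve ESCs was -0.48 ± 0.052 (limma adjusted p = 1.05e-04) in GKO and -0.24 ± 0.052 (limma adjusted p = 0.00488) in DKO. GKO was also below DKO (-0.24 ± 0.052, limma adjusted p = 0.00613). Ccne1, the cyclin partner of CDK2, was at 123 and 127 TPM (naïve ESCs), 128 and 127 (AKO), 92.1 and 98.1 (GKO), 86.1 and 82.9 (DKO) and 57.5 and 55.0 (primed ESCs). Both lines without GYS1 were lower, -0.39 ± 0.047 (limma adjusted p = 1.83e-04) in GKO and -0.56 ± 0.047 (limma adjusted p = 3.82e-05) in DKO. Primed ESCs were the lowest (-1.14 ± 0.047, limma adjusted p = 3.52e-08, 2.22-fold down). Ccne2, its paralog, had 18.4 and 17.3 TPM (naïve ESCs) and 25.7 and 22.3 (primed ESCs) and passed the threshold in primed against naïve ESCs (0.40 ± 0.079, limma adjusted p = 0.00113) and in no other comparison. Ccne1 made up 87.0% and 88.0% of the E cyclin TPM in naïve ESCs and 69.1% and 71.2% in primed ESCs. Cdk2 was lower in primed ESCs (-0.43), and its difference of -0.11 in GKO, though called, was lost on leaving out any of the 4 libraries and changed sign after quantile normalization. Cdk6 was at 26.1 and 22.6 TPM (naïve ESCs), 21.4 and 19.0 (GKO) and 38.6 and 25.0 (primed ESCs) and was called in no comparison.

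The CDK inhibitor genes did not go together. Cdkn1b, whose product p27 holds cyclin E with CDK2 inactive, was at 17.6 and 18.7 TPM (naïve ESCs), 20.1 and 19.8 (AKO), 11.6 and 12.8 (GKO), 24.3 and 21.5 (DKO) and 24.2 and 28.1 (primed ESCs). GKO was lower than every other library and DKO and primed ESCs were higher than every naïve and AKO library. In GKO the log2 difference was -0.54 ± 0.086 (limma adjusted p = 9.18e-04), in DKO 0.32 ± 0.086 (limma adjusted p = 0.0152) and in primed ESCs 0.50 ± 0.086 (limma adjusted p = 5.22e-04). GKO was 1.87-fold below DKO (-0.85 ± 0.086, limma adjusted p = 1.03e-04). The DKO call was lost without naïve 1 (0.27) or DKO 1 (0.24). Cdkn1b lies on chromosome 6, whose 565 tested genes had a median log2 difference of 0.14 in GKO and -0.39 in primed ESCs. Relative to its chromosome it was lower by 0.68 in GKO and higher by 0.90 in primed ESCs. Cdkn2a, which gives INK4a and ARF from separate promoters that a gene-level TPM cannot split, was at 29.5 and 27.8 TPM (naïve ESCs), 28.1 and 27.2 (AKO), 31.3 and 31.7 (GKO), 16.6 and 18.6 (DKO) and 1.19 and 0.385 (primed ESCs). Primed ESCs were close to 0, DKO stood between, and GKO was at or above the naïve level. The difference was -4.09 ± 0.170 (limma adjusted p = 3.61e-08) in primed and -0.68 ± 0.170 (limma adjusted p = 0.0107) in DKO against naïve ESCs, and 0.81 ± 0.170 (limma adjusted p = 0.00499) in GKO against DKO. In DKO the call was lost without naïve 1 (-0.63) or DKO 1 (-0.60), and with a pseudocount of 0.1 in place of 1 it missed the threshold against naïve ESCs (-0.70) and against GKO (0.84).

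**Figure D2:**
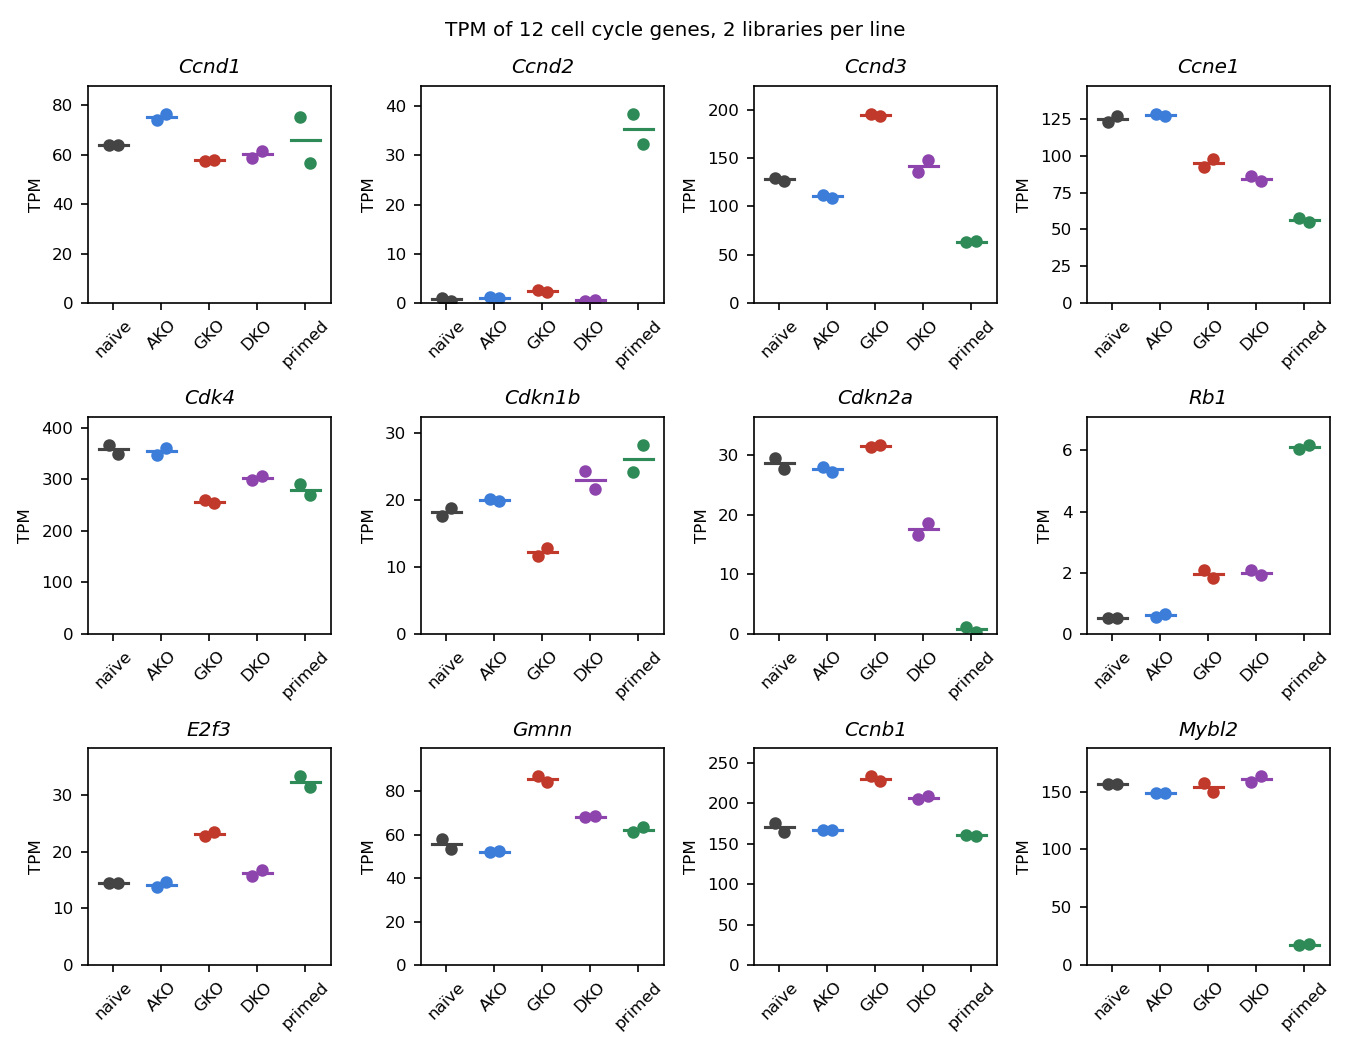
TPM of 12 of the genes in each library, with a point for each of the 2 libraries of a line, a bar at their mean and each axis starting at 0. Ccnd3, E2f3, Gmnn and Ccnb1 are higher in GKO than in naïve ESCs, Cdkn1b is lower in GKO and higher in DKO, and primed ESCs stand apart for Ccnd2, Cdkn2a, Rb1 and Mybl2.

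Of the pocket protein genes, Rb1 was listed at 0.53 and 0.509 TPM (naïve ESCs), 0.556 and 0.66 (AKO), 2.08 and 1.83 (GKO), 2.09 and 1.93 (DKO) and 6.03 and 6.16 (primed ESCs). All GKO, DKO and primed libraries were above all naïve and AKO libraries. The log2 difference was 0.96 ± 0.079 (limma adjusted p = 2.53e-05) in GKO, 0.98 ± 0.079 (limma adjusted p = 3.03e-05) in DKO and 2.22 ± 0.079 (limma adjusted p = 1.36e-08) in primed ESCs. Rb1 lies on chromosome 14 (GRCm39), whose 406 tested genes shifted upward together, with a median log2 difference of 0.47 in GKO, 0.37 in DKO and 0.54 in primed ESCs. With each chromosome centred on its own median Rb1 was still higher by 0.48, 0.60 and 1.70. What moved the chromosome was not tested. Rbl2 (p130), the pocket protein of resting cells, was at 1.66 and 1.81 TPM (naïve ESCs), 2.02 and 1.86 (AKO), 2.50 and 2.69 (GKO), 3.06 and 3.06 (DKO) and 0.906 and 0.994 (primed ESCs), higher in GKO (0.40) and DKO (0.57) and lower in primed ESCs (-0.49). Rbl1 (p107) was at 8.10 and 8.42 TPM (naïve ESCs), 8.15 and 7.96 (GKO), 6.06 and 6.63 (DKO) and 7.45 and 6.70 (primed ESCs) and was lower in DKO (-0.33 ± 0.072, limma adjusted p = 0.00494). The Rb1 to Rbl1 TPM ratio in naïve ESCs was 0.0654 and 0.0605, in GKO 0.255 and 0.230, in DKO 0.344 and 0.290, and in primed ESCs 0.809 and 0.920.

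The E2F genes differed among themselves, with 1 of 5 higher and 1 lower in GKO, 1 higher and 2 lower in DKO, and 2 higher and 3 lower in primed ESCs. All tested genes had 24.7% higher and 27.1% lower in GKO, 21.7% and 24.3% in DKO, and 37.4% and 42.5% in primed ESCs. E2f3, an activator, was at 14.6 and 14.4 TPM (naïve ESCs), 13.8 and 14.6 (AKO), 22.8 and 23.5 (GKO), 15.7 and 16.8 (DKO) and 33.4 and 31.5 (primed ESCs), so that GKO lay between the naïve and the primed level. The difference was 0.64 ± 0.057 (limma adjusted p = 3.97e-05) in GKO, 1.11 ± 0.057 (limma adjusted p = 1.52e-07) in primed ESCs and 0.48 ± 0.057 (limma adjusted p = 2.47e-04) in GKO against DKO. E2f1, also an activator, was at 19.8 and 19.2 TPM (naïve ESCs), 19.1 and 19.0 (GKO), 15.1 and 14.9 (DKO) and 13.0 and 13.2 (primed ESCs), lower in DKO (-0.35 ± 0.052, limma adjusted p = 6.81e-04). E2f2, of the same class, was lower in primed ESCs (-0.88) at 1.65 and 1.98 TPM beside 3.95 and 4.38 in naïve ESCs. E2f7 and E2f8 are the atypical repressors. E2f7 was at 4.93 and 5.20 TPM (naïve ESCs), 4.87 and 5.50 (AKO), 5.78 and 5.42 (GKO), 7.17 and 6.58 (DKO) and 9.18 and 8.33 (primed ESCs), higher in DKO (0.38 ± 0.083, limma adjusted p = 0.00565) and primed ESCs (0.69 ± 0.083, limma adjusted p = 4.90e-05), and lower in GKO than in DKO (-0.25 ± 0.083, limma adjusted p = 0.0361), a call lost without DKO 1 (-0.20), DKO 2 (-0.31), GKO 1 (-0.29) or GKO 2 (-0.21). E2f8 was at 17.2 and 16.6 TPM (naïve ESCs), 14.4 and 13.4 (GKO), 14.4 and 14.7 (DKO) and 13.6 and 12.9 (primed ESCs) and was lower in GKO (-0.27 ± 0.064, limma adjusted p = 0.00724), a call lost without naïve 1 (-0.24) or GKO 2 (-0.22).

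Of the 12 licensing and helicase genes, 3 were higher and 1 lower in GKO, 2 higher and 1 lower in DKO, and 2 higher and 10 lower in primed ESCs. Over all tested genes the shares were 24.7% higher and 27.1% lower in GKO, 21.7% and 24.3% in DKO, and 37.4% and 42.5% in primed ESCs. Gmnn was at 57.7 and 53.5 TPM (naïve ESCs), 52.2 and 52.2 (AKO), 86.8 and 83.9 (GKO), 67.9 and 68.6 (DKO) and 61.1 and 63.3 (primed ESCs). GKO was above every other library and DKO next. The log2 difference was 0.61 ± 0.048 (limma adjusted p = 1.99e-05) in GKO (1.54-fold), 0.29 ± 0.048 (limma adjusted p = 0.0012) in DKO and 0.38 ± 0.048 (limma adjusted p = 2.90e-04) in DKO against AKO. Its target Cdt1 was called in neither knockout, at 150.0 and 139 TPM in naïve ESCs and 146 and 138 in GKO, so the Gmnn to Cdt1 ratio was 0.385 and 0.383 in naïve ESCs, 0.354 and 0.354 in AKO, 0.596 and 0.610 in GKO, 0.462 and 0.410 in DKO and 0.573 and 0.593 in primed ESCs. In primed ESCs Cdt1 was lower (-0.44). Cdc6, the MCM loader, was at 31.9 and 32.7 TPM (naïve ESCs), 32.7 and 32.8 (AKO), 26.8 and 25.2 (GKO), 31.1 and 30.9 (DKO) and 36.7 and 37.2 (primed ESCs). It was lower in GKO (-0.30 ± 0.046, limma adjusted p = 6.71e-04) and also below DKO (-0.24 ± 0.046, limma adjusted p = 0.00277). Its call in primed ESCs (0.19) turned to -0.13 with chromosome 11, at a median of 0.30 there, centred.

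Orc1, the largest subunit of the origin recognition complex, was at 34.9 and 36.4 TPM (naïve ESCs), 35.1 and 35.2 (AKO), 33.9 and 34.1 (GKO), 39.8 and 39.6 (DKO) and 13.6 and 14.4 (primed ESCs). Primed ESCs were 2.54-fold lower (-1.29 ± 0.046, limma adjusted p = 1.43e-08), and GKO was below DKO (-0.22 ± 0.046, limma adjusted p = 0.00518). Mcm2, a subunit of the helicase, was at 259 and 256 TPM (naïve ESCs), 243 and 250.0 (AKO), 256 and 259 (GKO), 255 and 262 (DKO) and 119 and 116 (primed ESCs). The primed libraries were below all others (-1.12 ± 0.040, limma adjusted p = 1.50e-08), and with chromosome 6 centred the difference was -0.72. All 6 genes Mcm2 to Mcm7 fell in primed ESCs, by log2 differences from -0.31 (Mcm7) to -1.12. Their summed TPM was 1229 and 1216 in naïve ESCs, 1186 and 1205 in AKO, 1276 and 1232 in GKO, 1194 and 1213 in DKO and 786 and 767 in primed ESCs. Mcm7 missed the threshold after quantile normalization and with chromosomes centred. In GKO Mcm4 (0.18) and Mcm6 (0.14) were also called, a call lost on leaving out any of the 4 libraries. Mcm10, which joins the helicase when it fires, was lower in primed ESCs (-0.64) and in DKO (-0.20), where the call was lost without naïve 1 (-0.19) and after quantile normalization (-0.12). Mcm3 was at 167 and 164 TPM (naïve ESCs), 163 and 157 (GKO), 154 and 161 (DKO) and 115 and 110.3 (primed ESCs) and was called only in primed ESCs (-0.55). Pcna, the sliding clamp, was at 297 to 335 TPM in every library.

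Of the cyclin A and B, CDK1 and G2 checkpoint genes, 4 of 10 were higher in GKO and 8 of 10 lower in primed ESCs. The shares over all tested genes were 24.7% higher in GKO and 42.5% lower in primed ESCs. Ccnb1, the mitotic cyclin, was at 176 and 165 TPM (naïve ESCs), 167 and 166 (AKO), 233 and 227 (GKO), 205 and 209 (DKO) and 161 and 159 (primed ESCs). GKO and DKO were above every other library. The difference was 0.43 ± 0.044 (limma adjusted p = 7.72e-05) in GKO and 0.28 ± 0.044 (limma adjusted p = 9.96e-04) in DKO. Cdk1 was at 161 and 162 TPM (naïve ESCs), 169.9 and 167 (AKO), 184 and 197 (GKO), 168 and 172 (DKO) and 110.2 and 104 (primed ESCs), higher in GKO (0.24 ± 0.048, limma adjusted p = 0.00309) and lower in primed ESCs (-0.59 ± 0.048, limma adjusted p = 2.92e-06). Cdc25b, a phosphatase that activates CDK1, was at 15.6 and 15.7 TPM (naïve ESCs), 16.3 and 15.8 (AKO), 18.6 and 19.0 (GKO), 14.8 and 14.2 (DKO) and 11.3 and 9.87 (primed ESCs) and was higher in GKO than in DKO (0.35 ± 0.067, limma adjusted p = 0.00301). Chek2, a kinase of the DNA damage checkpoint, was at 32.4 and 30.4 TPM (naïve ESCs), 33.3 and 33.8 (AKO), 30.7 and 29.5 (GKO), 38.4 and 36.7 (DKO) and 18.2 and 22.2 (primed ESCs). It was higher in DKO (0.25 ± 0.082, limma adjusted p = 0.0332), a call lost without naïve 1 (0.29), naïve 2 (0.21), DKO 1 (0.22) or DKO 2 (0.28). It was lower in GKO than in DKO (-0.31 ± 0.082, limma adjusted p = 0.0144), lost without DKO 1 (-0.28) or GKO 2 (-0.28). Wee1 and Chek1, which hold CDK1 back, were lower in primed ESCs (-0.30 and -0.36), the former not after quantile normalization. Ccna2, the cyclin of S phase and G2, was higher in GKO (0.17), a call lost without naïve 1 (0.17), naïve 2 (0.18) or GKO 2 (0.16), higher in DKO (0.15), lost without naïve 1 (0.15), naïve 2 (0.16) or DKO 1 (0.13), and lower in primed ESCs (-0.40). Ccnb2, at 80.2 to 93.2 TPM outside primed ESCs, was lower in them (-0.49). Cdc25a differed by -0.13 in primed ESCs, a call lost without naïve 1 (-0.14) or naïve 2 (-0.11), and the difference changed sign after quantile normalization. Cdc25c lay between 9.11 and 11.3 TPM and was called in no comparison.

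In the spindle checkpoint, Mad2l1, which restrains CDC20, was at 92.5 and 92.6 TPM (naïve ESCs), 89.4 and 91.1 (AKO), 119.5 and 117 (GKO), 98.3 and 96.4 (DKO) and 78.0 and 60.8 (primed ESCs). It was higher in GKO (0.35 ± 0.092, limma adjusted p = 0.0121). This call was lost without naïve 1 (0.35), naïve 2 (0.35) or GKO 1 (0.33), and with chromosome 6 centred it was 0.20 and did not pass. Cdc20, the activator of the anaphase-promoting complex, was at 144 and 139.7 TPM (naïve ESCs), 148 and 146 (AKO), 151 and 149 (GKO), 168 and 176 (DKO) and 105 and 99.9 (primed ESCs). DKO was above every other library (0.28 ± 0.045, limma adjusted p = 0.00117 against naïve ESCs). In primed ESCs Ttk (-0.78), Bub1b (-0.63), Cdc20 (-0.47) and Mad2l1 (-0.42) were lower and Bub1 (0.23) and the kinetochore motor gene Cenpe (0.25) higher, and Mad2l1 did not pass with its chromosome centred (-0.02).

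Among the mitotic kinases, Aurka was at 70.1 and 71.3 TPM (naïve ESCs), 75.7 and 73.3 (AKO), 89.6 and 86.7 (GKO), 85.4 and 82.9 (DKO) and 47.6 and 49.2 (primed ESCs) and Aurkb at 45.1 and 42.6 TPM (naïve ESCs), 45.3 and 42.7 (AKO), 38.4 and 37.1 (GKO), 40.4 and 43.2 (DKO) and 56.0 and 65.2 (primed ESCs). The former was higher and the latter lower in GKO than in naïve ESCs, and in primed ESCs the order was the reverse. Aurka, the kinase of the centrosome, differed by 0.31 ± 0.042 (limma adjusted p = 3.35e-04) in GKO. Aurkb, the kinase of the chromosomal passenger complex, differed by -0.21 ± 0.074 (limma adjusted p = 0.0389) in GKO, a call lost without naïve 1 (-0.17), naïve 2 (-0.25), GKO 1 (-0.24) or GKO 2 (-0.19) and with chromosomes centred, and by 0.45 ± 0.074 (limma adjusted p = 3.64e-04) in primed ESCs, which became 0.14 with chromosome 11 centred. The Aurka to Aurkb TPM ratio in naïve ESCs was 1.55 and 1.67, in GKO 2.33 and 2.34, in DKO 2.11 and 1.92, and in primed ESCs 0.851 and 0.755. Plk1 was lower in DKO (-0.22), at 63.9 and 69.2 TPM beside 76.9 and 78.0 in naïve ESCs.

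Foxm1 and Mybl2 (B-Myb) are the transcription factors of the late cell cycle. Mybl2 was at 156 and 156 TPM (naïve ESCs), 149 and 149 (AKO), 158 and 149.6 (GKO), 158 and 163 (DKO) and 17.5 and 17.9 (primed ESCs). It was called in no knockout against naïve ESCs and was 8.82-fold lower in primed ESCs (-3.07 ± 0.042, limma adjusted p = 5.94e-11). Foxm1 was at 37.9 and 39.1 TPM (naïve ESCs), 36.7 and 37.6 (AKO), 44.1 and 41.9 (GKO), 30.3 and 30.5 (DKO) and 33.9 and 30.5 (primed ESCs). DKO was below every naïve, AKO and GKO library, with a difference of -0.33 ± 0.057 (limma adjusted p = 0.00155) from naïve ESCs, and GKO was above DKO (0.49 ± 0.057, limma adjusted p = 2.21e-04). Its call in GKO against naïve ESCs (0.16) was lost on leaving out any of the 4 libraries and with chromosome 6 centred (0.01), and the primed difference of -0.25 turned to 0.15. The Foxm1 to Mybl2 ratio in naïve ESCs was 0.243 and 0.250, in GKO 0.280 and 0.280, in DKO 0.192 and 0.187, and in primed ESCs 1.93 and 1.70. Mki67 and Top2a, the usual markers of proliferating cells, did not pass the threshold in primed against naïve ESCs, and with chromosomes centred both passed it in opposite directions, at 0.21 and -0.27. Mki67 was at 31.0 and 31.5 TPM (naïve ESCs), 31.8 and 32.2 (AKO), 37.1 and 35.9 (GKO), 28.8 and 28.2 (DKO) and 32.3 and 34.6 (primed ESCs). Top2a was at 144 and 150.2 TPM (naïve ESCs), 159 and 155 (AKO), 142 and 140.4 (GKO), 132 and 127 (DKO) and 155 and 149 (primed ESCs), and was lower in DKO than in naïve ESCs (-0.18), a call lost without naïve 2 (-0.15) or DKO 2 (-0.15) and after quantile normalization (-0.09). Mki67 was higher in GKO than in DKO (0.35 ± 0.048, limma adjusted p = 5.98e-04).

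**Figure D3:**
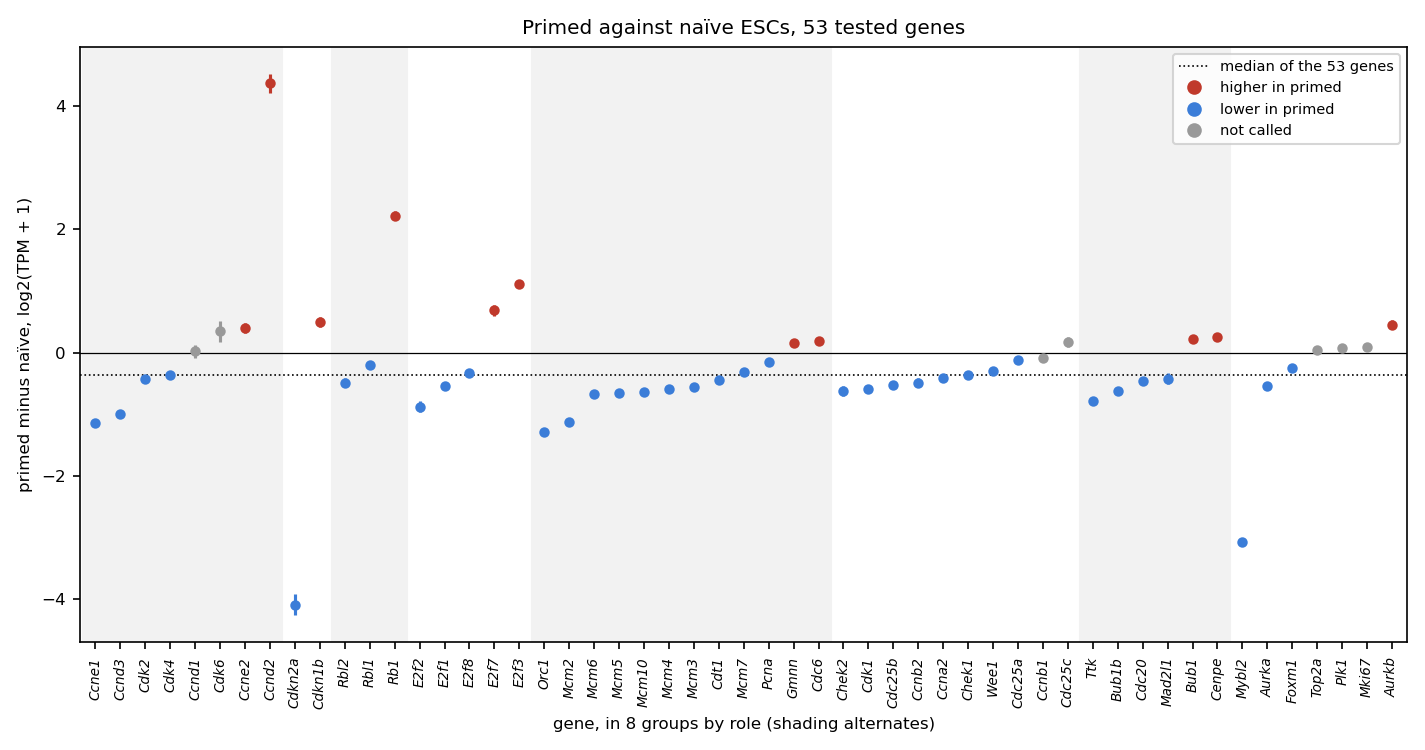
Log2 difference in log2(TPM + 1), primed minus naïve ESCs, of the 53 tested genes in their 8 groups, with bars of 1 SE from limma and colour for the call. Most points lie below 0 near the dotted median of -0.36, Ccnd2 stands at 4.37, and Cdkn2a and Mybl2 stand at -4.09 and -3.07.

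Loss of GYS1 could be read on 2 backgrounds that share no library, wild type for AMPK (GKO against naïve ESCs) and AMPK knockout (DKO against AKO). Both had shifts of whole chromosomes. The median log2 difference was 0.47 and 0.38 on chromosome 14, -0.40 and -0.27 on chromosome 19, and 0.14 and -0.01 on chromosome 6. On chromosome X it was -0.07 and -0.29. In AKO against naïve ESCs chromosomes 14 and 19 were at -0.009 and -0.004, and chromosome 12 was at 0.16. Whether GKO and DKO share a trait other than GYS1 loss was not tested. AKO still held 7.24 and 6.94 TPM of Prkaa1 beside 2.30 and 2.04 in DKO, and 2.71 and 2.44 TPM of Prkaa2, the other catalytic subunit gene, beside 3.29 and 3.10, so that DKO against AKO and the interaction do not isolate the loss of GYS1 from this difference. In DKO against AKO, 10 genes were higher and 16 lower, 49.1% beside 46.3% of all genes (22.4% higher and 23.9% lower), and 17 higher and 12 lower after quantile normalization. The count was 15 without AKO 1, 14 without AKO 2 and 15 without DKO 1. Libraries did not overlap for 43 of the 53, beside 77%. Of the 17 genes higher in GKO, 7 were also higher in DKO against AKO (Ccnd3, Rb1, Rbl2, E2f3, Gmnn, Ccnb1 and Aurka), 3 were lower (Ccnd2, Foxm1 and Mki67) and 7 were not called, and of the 7 lower in GKO, Cdk4 and Ccne1 were lower and 5 were not called. Of all 2978 genes higher in GKO 51.2% were also higher and 8.83% lower in DKO against AKO, and of all 3263 lower in GKO 51.8% were also lower. In DKO against AKO the calls of Ccnd2 and Mki67 were lost on leaving out any of the 4 libraries, as was that of Foxm1 in GKO against naïve ESCs. In DKO against AKO, E2f3 lost its call without AKO 1 (0.14) or DKO 2 (0.14), Aurka without AKO 2 (0.15) or DKO 1 (0.15) and Cdk4 without AKO 2 (-0.20). Over the 53 genes, which are not independent replicates, the 2 sets of log2 differences had a Pearson r of 0.429 and a Spearman rho of 0.351, and 36 had the same sign (67.9%). Over all 12060 tested genes r was 0.568, rho was 0.535 and 69.4% had the same sign.

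Cdkn2a (-0.63 ± 0.170, limma adjusted p = 0.0149), Ccne1 (-0.59 ± 0.047, limma adjusted p = 2.80e-05), Gmnn (0.38 ± 0.048, limma adjusted p = 2.90e-04), Ccnd3 (0.36 ± 0.050, limma adjusted p = 5.39e-04) and E2f7 (0.35 ± 0.083, limma adjusted p = 0.00824) had the largest differences in DKO against AKO among genes at a mean of 5 TPM or more, beside Ccnd1 above. The Cdkn2a call was lost without AKO 1 (-0.61), AKO 2 (-0.65) or DKO 1 (-0.55) and with a pseudocount of 0.1 (-0.65), and that of E2f7 without AKO 1 (0.28) or DKO 1 (0.29). The difference between the 2 effects of GYS1 loss was tested as an interaction, (GKO minus naïve) minus (DKO minus AKO), which called 14 genes higher and 4 lower, 34% beside 25.8% of all genes (12.8% higher and 13.1% lower). It exceeded 1 on the log2 scale for 1 of the 53, Ccnd2, beside 2.89% of all genes. Cdkn1b (-0.72 ± 0.122, limma adjusted p = 0.00338), E2f3 (0.45 ± 0.081, limma adjusted p = 0.00443) and Foxm1 (0.44 ± 0.080, limma adjusted p = 0.00508) kept this call whichever of the 8 libraries was left out, and Foxm1 lost it with chromosome 6 centred (0.25). Ccne1 and Ccnb1, which moved the same way on both backgrounds, did not pass, at 0.20 ± 0.067 (limma adjusted p = 0.0592) and 0.12 ± 0.063 (limma adjusted p = 0.185), which does not show that their effects were equal. The interaction count was 6 without naïve 1, naïve 2, AKO 1 or GKO 2, 7 without AKO 2 or DKO 2, 8 without DKO 1 and 9 without GKO 1.

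**Figure D4:**
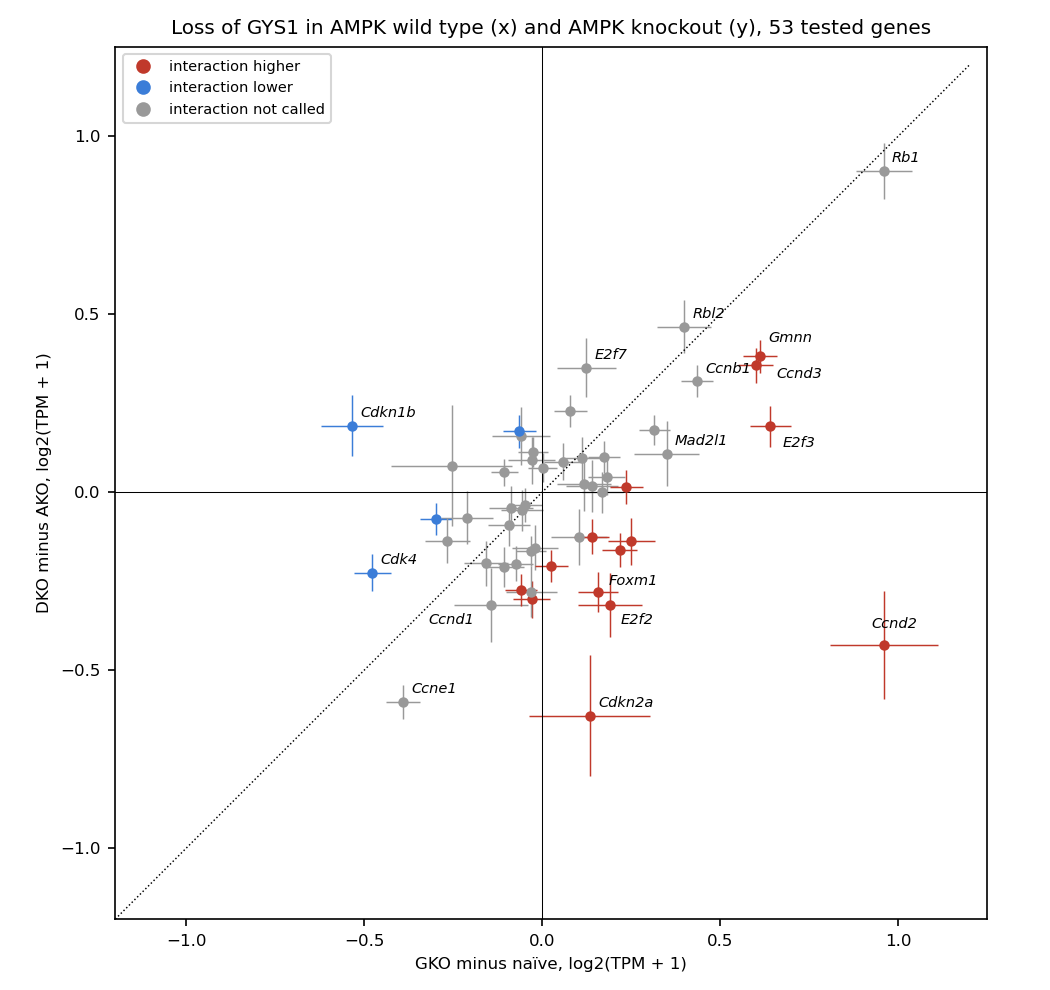
Log2 difference in log2(TPM + 1) on loss of GYS1 for the 53 tested genes, wild type for AMPK (GKO minus naïve, horizontal) and AMPK knockout (DKO minus AKO, vertical), bars of 1 SE, colour for the interaction call and a dotted line where both are equal. Rb1 lies near the line, Ccnd3, Gmnn and E2f3 lie below it, and Cdkn1b and Ccnd2 lie in the quadrants where the 2 differences have opposite signs.

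The other genes of the cycle, 136 in 6 lists, set these values in context. In GKO against naïve ESCs, 8 of the 44 other replication genes were higher and 15 lower, with Rpa3, a single-strand binding subunit, at 0.59 and Rrm2, of the nucleotide reductase, at -0.73. The 36 other kinetochore, spindle and cytokinesis genes had 6 higher and 8 lower, with Kif4 at 0.51 and Spc24 at -0.78. The 18 genes of the anaphase-promoting complex and its partners had 3 higher and 8 lower. Of 13 other CDK inhibitors and G1 regulators, 4 were higher and 4 lower. Cdkn1c (p57), an inhibitor of the same family as Cdkn1b, was higher in GKO (1.28 ± 0.159, limma adjusted p = 2.20e-04) and lower in DKO (-0.56 ± 0.159, limma adjusted p = 0.018) than in naïve ESCs, opposite to Cdkn1b. The 14 damage checkpoint genes had 2 higher and 5 lower in GKO, with Rad9a at -0.86 beside a median of -0.40 on its chromosome 19, and 3 higher and 0 lower in DKO. Of the 11 other E2F, DP and MuvB genes, 2 were higher and 5 lower in DKO, with E2f6, a repressor, at -0.65. Over all tested genes 24.7% were higher and 27.1% lower in GKO, and 21.7% and 24.3% in DKO. In AKO against naïve ESCs limma called 0 genes in each of the 6 lists.

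In primed against naïve ESCs each of these lists had more members lower than higher, as did all tested genes, of which 37.4% were higher and 42.5% lower. Of the 44 replication genes 27 were lower and 8 higher (median -0.27), with Rfc5, of the clamp loader, at -1.25, and of the 36 kinetochore and spindle genes 28 were lower and 2 higher (median -0.36). The largest rise in that list was in Pttg1, or securin, which holds separase inactive until anaphase and was higher by 2.71 ± 0.093 (limma adjusted p = 1.10e-08), while separase, Espl1, was at -1.05 ± 0.059 (limma adjusted p = 2.49e-07). The anaphase-promoting complex list had 6 higher and 10 lower, the E2F, DP and MuvB list 2 and 7, the damage checkpoint list 2 and 7, and the CDK inhibitor and G1 list 3 and 6, with Ccnf, or cyclin F, at -1.38.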

How the data were processed

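Bulk mRNA of 5 mouse embryonic stem cell lines, 2 libraries each, was analysed from gene tables deposited by the authors as TPM, a transcript abundance, of 21853 protein-coding genes, scaled within each library, so that read depth is unknown. The submitters' processing notes name FastQC, Trim Galore 0.6.6, STAR 2.7.9a and RSEM 1.3.3 with GRCm38, and list GRCh38 beside it. The labels name a TruSeq stranded kit. The study's methods instead name an MGIEasy directional kit, GRCm39 and another STAR version, and name RNA from J1, GKO and PJ1 only, so the build and kit are not settled here. No coordinate was converted.

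The 54 genes and all lists were chosen with earlier results of these data known. Genes at 1 TPM or more in at least 2 libraries (12060, of which 53 members) were fitted as log2(TPM + 1) with 1 mean per line in limma 3.58.1 (R 4.3.3) with an intensity trend. P-values were adjusted over all tested genes by Benjamini-Hochberg, with a threshold of 0.05. With 2 libraries against 2 an exact permutation test cannot go below p = 0.333. Members were named in full when they passed the threshold, had a mean of 5 TPM or more in the higher line, did not overlap, and were among the 6 largest rises or falls (3 in DKO against AKO and in the interaction), and other members by value, role or range. Chromosomes came from GENCODE vM39 (GRCm39), by symbol. Promoters came from RefSeq (GRCm38.p6). Alternatives were a pseudocount of 0.1, other filters, quantile and median-ratio scaling, chromosome centring, no trend, a replicate block, only the lines compared and each library left out. Same-numbered libraries of different lines had deviations that correlated between -0.128 and 0.078. The main fit did not pair them by number, and such values cannot show that no batch was shared.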

Additional observations from a re-analysis of the deposited data

Results flagged for a closer look

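The interaction (GKO minus naïve) minus (DKO minus AKO) called 18 of the 53 genes in limma. The 6 given here had the largest called values in either direction among genes at a mean of 5 TPM or more. Ccnd2 had a larger value, 1.39, and lay under that level. AKO and DKO also differed in Prkaa1, so these values do not isolate the effect of GYS1 loss. E2f3 rose more on the wild-type background, by 0.45 on the log2 scale (limma adjusted p = 0.00443), and Foxm1 had a difference of 0.44 (limma adjusted p = 0.00508). With chromosomes centred, Foxm1 stood at 0.25 and missed the threshold. Cdkn2a had 0.76 (limma adjusted p = 0.0467), which missed the threshold on leaving out any of the 8 libraries or with a pseudocount of 0.1. Cdkn1b had -0.72 (limma adjusted p = 0.00338), with GKO called below naïve ESCs (-0.54). Its difference of 0.19 in DKO against AKO was not called. Cdk4 had -0.25 (limma adjusted p = 0.0351) and Orc1 -0.24 (limma adjusted p = 0.0285), and both missed the threshold on leaving out any of the 8 libraries and with chromosomes centred. The share that passed this interaction was 34% of the 53 genes and 25.8% of all tested genes.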

How the results depend on the processing

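The number of the 53 genes called kept within 1.5 times its value under the other pseudocount, filters, scalings and the fit of only the lines compared. Asking also for an absolute log2 difference of 1 left 0 genes in GKO against naïve ESCs, 0 in DKO against naïve ESCs, 8 in primed against naïve ESCs, 1 in GKO against DKO, 0 in DKO against AKO and 1 in the interaction. The interaction count of 18 became 10 without the intensity trend and 11 with the replicate block. With the replicate block the other counts were 20 in GKO, 22 in DKO and 46 in primed ESCs against naïve ESCs, 25 in GKO against DKO and 26 in DKO against AKO. Crossing the DKO numbers, an alternative chosen after seeing the data, gave 24 in DKO against naïve ESCs. Leaving out the primed libraries, also chosen after seeing the data, gave 1 call in AKO against naïve ESCs in place of 0. Leaving out each library in turn gave 0 calls in AKO, 14 to 17 in GKO, 14 to 18 in DKO and 43 to 47 in primed ESCs against naïve ESCs, 17 to 20 in GKO against DKO, 14 to 18 in DKO against AKO and 6 to 9 in the interaction, with a single library left in the line concerned, assumed to vary like the others. Among the values of the genes named as the largest changes of each comparison, 0 reversed under these alternatives, and the threshold was missed in 15 of 168 in GKO, 10 of 180 in DKO, 1 of 155 in primed ESCs, 10 of 168 in GKO against DKO, 12 of 84 in DKO against AKO and 35 of 108 in the interaction. Outside those genes, Cdc6 (-0.13) and Foxm1 (0.15) in primed ESCs were called in the other direction with chromosomes centred, and Cdc25a (0.08) and Pcna (0.08) in primed ESCs changed sign after quantile normalization, as did Cdk2 in GKO. The cause of these changes was not tested. Levels under a few TPM, as of Ccnd2 and Rb1, depend on the pseudocount.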
